A study of Mus musculus with 64 samples.

Results

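Mammary tumors of mice homozygous for the floxed Abi1 allele (fl/fl) were compared with tumors of heterozygous mice (fl/wt), irrespective of Cre. The comparison took 4 fl/fl tumors, numbers 6 and 9 of mouse G184 (Cre-) and numbers 1 and 6 of mouse G174 (Cre+), and 4 fl/wt tumors, numbers 6 and 8 of mouse G144 (Cre-) and numbers 3 and 6 of mouse G164 (Cre+). These are all 8 tumors of the series. Each combination of genotype and Cre was 1 mouse, so genotype cannot be told apart from the mouse, and the older mice were G184 and G164 while the younger were G174 and G144. All 4 mice carried the PyMT transgene, which drives mammary tumors, and Cre stood under the MMTV promoter, which acts mainly in mammary epithelium. By the study's methods the PyMT and floxed lines were on C57BL/6, the Cre line was of mixed strain, and fl/fl fathers were bred to fl/wt mothers that carried Cre. Total RNA was sequenced after removal of ribosomal RNA, and counts on the reverse strand were summed over lanes and runs, to between 50346075 and 69264893 counts in genes per tumor. Values below are CPM, counts relative to the library size after TMM scaling, and a gene is called separated where all 4 fl/fl tumors lie above, or all lie below, the 4 fl/wt tumors.

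A floxed gene is inherited with the chromosome segment around it, and genes that differ between inbred strains can travel with such a segment or with other segments of a mixed background. Processed pseudogenes are copies of spliced messenger RNA inserted elsewhere in the genome, and many stay nearly identical to the parent gene they came from. A read is assigned by its letters to the reference copy it matches best, so reads of a parent and of its copies are easily exchanged, and the counts of such genes are uncertain.

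Abi1, the adaptor subunit of the WAVE complex that was floxed, was lowest in the Cre+ fl/fl tumors, lay between in the Cre+ fl/wt tumors, and was not separated. It had 113.9 and 122.4 CPM in G184 and 8.93 and 6.47 CPM in G174 (fl/fl), against 111.1 and 130.1 CPM in G144 and 63.1 and 66.7 CPM in G164 (fl/wt). The Cre- fl/fl tumors overlapped the Cre- fl/wt tumors, and only the Cre+ fl/fl tumors lay below all others. In the quasi-likelihood test of edgeR the log2 fold change came to −0.03 in the Cre- pair of mice (standard error 0.16, adjusted p = 0.918) and to −3.08 in the Cre+ pair (0.17, adjusted p = 0.000806). In bulk tissue, fewer cells of a type and less RNA per cell cannot be told apart. The gene occupies positions 22940073 to 23040241 of chromosome 2 in GRCm38.

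Several libraries stood apart on marker lists. The 13 genes of the skeletal muscle list summed to 12.2 to 15.04 CPM in the 4 fl/fl tumors, against 317 CPM in G144 tumor 8, 394 CPM in G164 tumor 3, and 13.2 and 13.8 CPM in the other fl/wt tumors. Acta1, the skeletal muscle actin, had 0.48, 0.33, 0.23 and 0.59 CPM in fl/fl tumors, against 0.50, 75.8, 73.6 and 0.14 CPM in fl/wt tumors. None of the 13 was separated. The squamous list summed to 5.96 to 25.2 CPM in fl/fl tumors, against 8.55 and 14.4 CPM in G144 and 189 and 144.3 CPM in G164. The B and plasma cell list summed to 146.3 to 229 CPM in fl/fl tumors, against 162 and 161 CPM in G144 and 653 and 523 CPM in G164. The adipocyte list was highest in G164 tumor 6 (302 CPM, against 28.4 to 156 CPM in the 7 other tumors), and the interferon list in G184 (3359 and 3801 CPM, against 457 to 1721 CPM in the others). The part of these in the results below was not tested. The luminal epithelial list, which includes Krt8, Krt18 and Epcam, summed to 4087 to 5188 CPM in fl/fl tumors and 4564 to 5248 CPM in fl/wt tumors, so both sides held mammary epithelium.

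Most genes with the widest separation were pseudogenes scattered over the genome, and most of their parent genes lay on chromosomes 9 and 12. A stretch of 60 bases of each of 4 of them is shown with its parent, because the difference between such copies is what the counts rest on. Each is the stretch, aligned without gaps, that held the most differences, so other stretches differ no more and mostly less. Gm11942 had 9 mismatches over 345 aligned bases, and 5 differences lie in the stretch shown. The stretches lie in the coding part of the parent, run 5′ to 3′ on the gene's strand, come from GENCODE M21 transcripts (GRCm38), and have the bases that differ between copy and parent in capitals. The copies are at chr4:32965086-32965145 (plus strand, Gm11942), chr5:5783442-5783501 (minus strand, Gm15459), chr1:43189168-43189227 (plus strand, Gm8210) and chrX:152910061-152910120 (minus strand, Gm6472).
Gm11942: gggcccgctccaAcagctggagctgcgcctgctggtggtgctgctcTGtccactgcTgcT
Rplp1: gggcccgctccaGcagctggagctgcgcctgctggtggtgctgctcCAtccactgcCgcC
Gm15459: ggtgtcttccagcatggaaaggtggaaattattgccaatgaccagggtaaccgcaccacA
Hspa8: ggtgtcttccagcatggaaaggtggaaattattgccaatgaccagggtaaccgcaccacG
Gm8210: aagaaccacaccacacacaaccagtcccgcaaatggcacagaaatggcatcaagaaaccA
Rpl29: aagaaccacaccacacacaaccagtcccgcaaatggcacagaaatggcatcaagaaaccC
Gm6472: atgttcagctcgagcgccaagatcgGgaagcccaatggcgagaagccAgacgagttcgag
Rps7: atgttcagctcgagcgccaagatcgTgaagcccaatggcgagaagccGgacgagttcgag

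Complete separation was found in 659 of 22187 tested genes (2.97%), of which 354 (1.6%) were higher and 305 (1.37%) lower in fl/fl tumors. Most of these separations were narrow. In 535 of the 659 (81.2%) the sides were less than 1.1-fold apart, measured as the lowest tumor of the higher side over the highest tumor of the lower side, with 0.5 CPM added to each. The sides were at least 1.5-fold apart in 21 genes (0.0947% of those tested), 5 higher and 16 lower in fl/fl tumors. These 21 were 12 pseudogenes, 8 protein-coding genes and 1 lincRNA gene on 12 chromosomes. Pseudogenes were 57.1% of the widely separated genes, 9.10% of all separated genes and 7.08% of all tested genes.

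By gene type, separation held for 459 of 15662 protein-coding genes (2.93%), 78 of 2576 long noncoding RNA genes (3.03%), 60 of 1570 pseudogenes (3.82%) and 39 of 1511 TEC genes, transcripts yet to be experimentally verified (2.58%). All 5 separated immunoglobulin and T cell receptor segments, of 119 tested (4.20%), were immunoglobulin V genes and were lower in fl/fl tumors. The B and plasma cell sums were high in G164 only, while those of G144 (162 and 161 CPM) lay within the fl/fl range (146.3 to 229 CPM).

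Gm11942, a copy of Rplp1 on chromosome 4 (32964888 to 32965232), had the widest gap. It had 0.34, 0.28, 0.20 and 0.21 CPM in fl/fl tumors, against 25.7, 15.01, 18.3 and 17.7 CPM in fl/wt tumors. The lowest fl/wt tumor was above the highest fl/fl tumor by 18.5-fold with the 0.5 CPM added, and the gene fell by a log2 fold change of −6.24 (standard error 0.24, adjusted p = 0.000277) in the fit over tumors. Its parent Rplp1, a protein of the ribosomal stalk, overlapped between the sides, with 573 to 826 CPM in fl/fl tumors and 621 to 788 CPM in fl/wt tumors. Genes named here and below for their gap were picked in these same tumors, so their p-values lend the gap no support.

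Gm15459, a copy of Hspa8 on chromosome 5 (5781615 to 5783555), was the most abundant of them. It had 9.89, 10.4, 10.5 and 12.8 CPM in fl/fl tumors, against 295, 279, 211 and 200.4 CPM in fl/wt tumors. In the fit over tumors it fell by a log2 fold change of −4.48 (standard error 0.09, adjusted p = 9.1e-06). With the mouse as replicate the same test gave −4.49 (standard error 0.25, adjusted p = 0.0942). The fl/fl tumors lay close together, while the fl/wt tumors of G144 lay above those of G164. The copy matched Hspa8, a constitutive heat shock chaperone, at 99.7% of bases, with 5 mismatches over 1941 aligned bases. Hspa8 itself had 1554, 1526, 1698 and 2075 CPM in fl/fl tumors and 1639, 1697, 1158 and 1124 CPM in fl/wt tumors, and was not separated.

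Gm8210, a copy of Rpl29 on chromosome 1 (43189156 to 43189638), was nearly absent from fl/fl tumors. It had 0, 1, 1 and 0 counts in fl/fl tumors, against 395, 351, 213 and 251 counts in fl/wt tumors. The summed counts were 2 in fl/fl tumors and 1210 in fl/wt tumors, so the fl/fl share was 0.00144 of the fl/wt share (95% exact interval 0.000174 to 0.0052, which covers counting error only). Rpl29, a protein of the large ribosomal subunit, was separated the other way, with 137, 132, 179 and 222 CPM in fl/fl tumors, against 125, 123, 84.9 and 94.7 CPM in fl/wt tumors (log2 fold change 0.64, adjusted p = 0.0562).

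Gm9008, annotated as protein-coding on chromosome 6 (76495432 to 76497784), matched Rnf26 of chromosome 9 at 99.05% of aligned bases and was separated in the same direction. It had 2 counts over the fl/fl tumors and 460 over the fl/wt tumors, a fl/fl share of 0.00378 of the fl/wt share (exact interval 0.000456 to 0.0137, which covers counting error only). Its 4 fl/wt tumors lay at 2.06, 1.97, 1.56 and 2.13 CPM. Rnf26 was separated in the opposite direction, with 3.99, 4.82, 5.81 and 4.23 CPM in fl/fl tumors and 3.25, 3.39, 3.35 and 3.82 CPM in fl/wt tumors.

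The widely separated copies of chromosome 12 genes were higher in fl/fl tumors. Gm6472, a copy of Rps7 on the X chromosome (152909505 to 152910155), had 8.80, 10.02, 11.97 and 13.6 CPM in fl/fl tumors, against 3.15, 2.33, 2.53 and 2.05 CPM in fl/wt tumors (log2 fold change 2.13, standard error 0.16, adjusted p = 0.00495). Gm7993, a copy of Odc1 on chromosome 5 (95974240 to 95975623), had 1.26, 1.37, 2.27 and 3.51 CPM in fl/fl tumors, against 0.32, 0.32, 0.30 and 0.16 CPM in fl/wt tumors. Gm9259, an unprocessed pseudogene on chromosome 12, best matched Hpcal1 of the same chromosome, at 89.04% of bases. It had 34, 25, 35 and 27 counts in fl/fl tumors and 0 counts in each fl/wt tumor, so it passed the filter on low counts through the fl/fl mice alone. The exact 95% lower limit was 28.07-fold higher (35.05-fold against a floor of 3 counts over the fl/wt tumors). That limit covers counting error only, not the spread between mice. On each of these genes the sides were clear of each other.

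Gm11868, a copy of Cyb5r4 on chromosome 4, had 0.54, 0.58, 0.41 and 0.45 CPM in fl/fl tumors, against 9.02, 6.78, 5.98 and 6.35 CPM in fl/wt tumors, again with no overlap. Gm7049, a copy of Me1 on chromosome 13, fell by a log2 fold change of −2.36 (standard error 0.18, adjusted p = 0.00495). With unstranded counts its log2 fold change was 0.33 (adjusted p = 0.741), so its call holds for the reverse strand only.

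**Figure D1:**
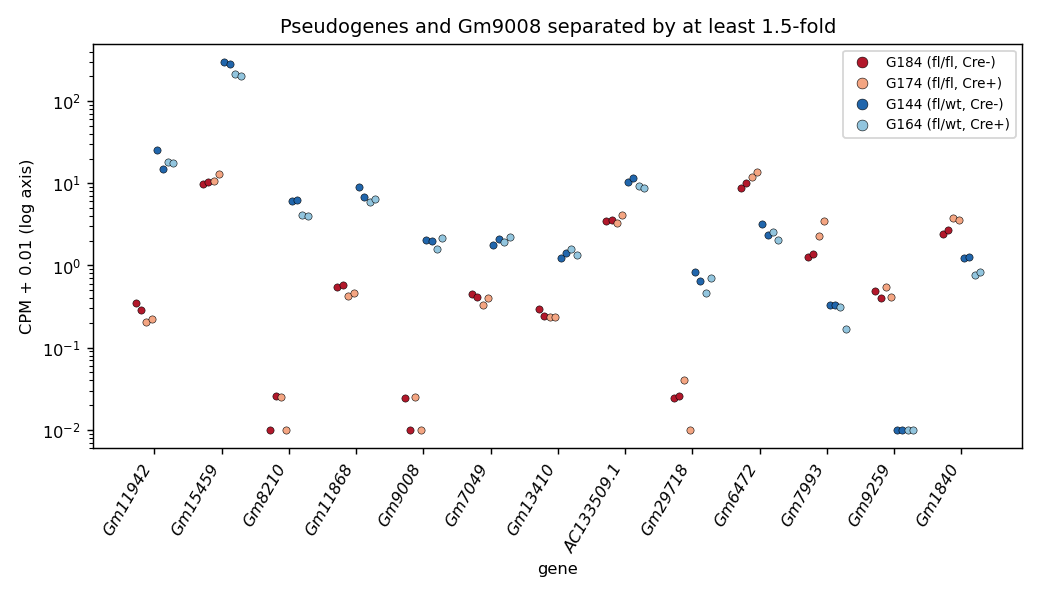
CPM plus 0.01 on a log axis (y) for the 12 pseudogenes separated by at least 1.5-fold and Gm9008 (x), with a point for each tumor, the fl/fl tumors of G184 and G174 left of the fl/wt tumors of G144 and G164. The first 9 genes are lower in all fl/fl tumors, Gm11942 at 0.20 to 0.34 CPM against 15.01 to 25.7 CPM, and the last 4 are higher, Gm6472 at 8.80 to 13.6 CPM against 2.05 to 3.15 CPM.

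A match to a protein-coding transcript was found for 1381 of the 1570 tested pseudogenes, and for 50 of the 60 separated ones. Where the best match, here called the parent, lay on chromosome 9, 15 of 98 pseudogenes were separated (15.3%), 14 of them lower in fl/fl tumors. Where it lay on chromosome 12, 13 of 61 were separated (21.3%), 10 of them higher in fl/fl tumors. Of all other pseudogenes with a match, 22 of 1222 were separated (1.80%). These include copies of parents that were not among the tested genes, for which no chromosome was assigned. Leaving out any 1 tumor raised the count of 22 for these others to 38 (without G184 tumor 6 or G144 tumor 8) to 77 (without G174 tumor 6). The count of 28 for chromosomes 9 and 12 rose to 30 to 36. Without both tumors with muscle genes the counts were 93 and 43, so the contrast narrowed as tumors were left out, which makes separation easier by construction. No test was made of these shares, and copies of the same parent are not independent of each other.

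The 15 copies of chromosome 9 genes came from 10 parents between positions 40800984 and 106431568, and none of the copies lay on chromosome 9. Among the parents were Hspa8, the RNA helicase gene Ddx6, Rplp1, the translation factor gene Eef1a1, malic enzyme 1 (Me1), the reductase gene Cyb5r4 and Rpl29. The 13 copies of chromosome 12 genes came from 8 parents between 17544794 and 40445902, and 8 of the copies lay on chromosome 12. A stricter set kept only copies at least 95% identical over at least 90% of their length, and none on the parent's assigned chromosome. There the shares were 16 of 82 (19.51%) for parents on chromosomes 9 and 12 and 12 of 659 (1.82%) for all others. Of the 9 separated pseudogenes with a separated parent, the parent went in the opposite direction in 7, which again share parents (Hpcal1 and Rpl29).

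By the position of the genes themselves, chromosome 9 had 72 separated genes of 1215 (5.93%) and chromosome 12 had 44 of 866 (5.08%), while the other autosomes and X lay between 1.49% and 4.19%. Without pseudogenes the shares were 67 of 1150 (5.83%) on chromosome 9 and 34 of 778 (4.37%) on chromosome 12. Of 399 windows of 5 Mb with at least 20 tested genes, the highest share was 10 of 42 (23.8%), between 20 and 25 Mb of chromosome 12, where Zfp125, a transcribed pseudogene of the zinc finger family, and the sheddase gene Adam17 lie. Several of the 10 are pseudogenes with chromosome 12 parents, counted above as well. Zfp125 lies within 3110053B16Rik on the same strand, and both are among the 10. The median over windows was 2.38%. The next highest windows were on other chromosomes, with 4 of 21 genes (19.05%) between 115 and 120 Mb of chromosome 13, 3 of 22 (13.6%) between 155 and 160 Mb of chromosome 3 and 3 of 25 (12%) between 110 and 115 Mb of chromosome 10. On chromosome 9 the window from 40 to 45 Mb held 10 separated genes of 88 (11.4%) and that from 105 to 110 Mb held 13 of 125 (10.4%).

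**Figure D2:**
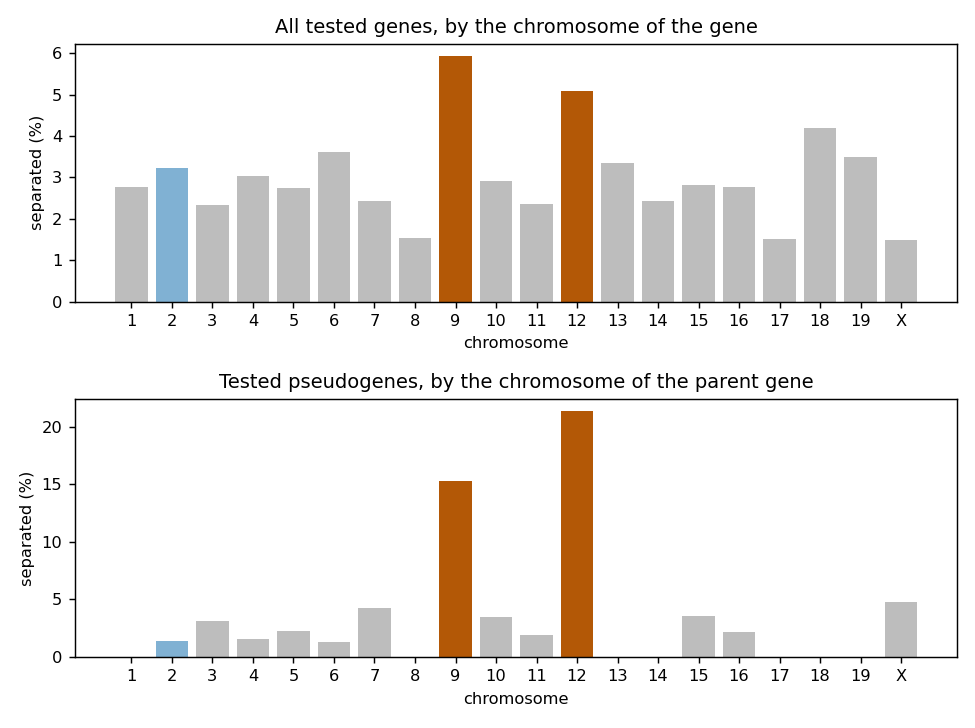
Percent of tested genes that were separated, by the chromosome of the gene (top), and percent of tested pseudogenes that were separated, by the chromosome of the parent gene (bottom), with chromosomes 9 and 12 in brown and 2 in blue. Chromosomes 9 and 12 are the highest of the autosomes and X in both panels, at 5.93% and 5.08% on top and 15.3% and 21.3% below.

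Separation was then counted around Abi1. On chromosome 2, 53 of 1644 tested genes (3.22%) were separated. Within 5 Mb of Abi1 it was 5 of 148 genes (3.38%), within 10 Mb 12 of 300 (4%), within 20 Mb 20 of 495 (4.04%) and within 50 Mb 21 of 640 (3.28%), against 606 of 20543 (2.95%) on the other chromosomes. Beyond 20 Mb on chromosome 2 it was 33 of 1148 (2.87%). These shares rest on few genes and were not tested against each other. That within 5 Mb was 0.735% with run 1 alone and ran from 1.97% (without G144 tumor 8) to 9.15% (without G174 tumor 6) when 1 tumor was left out.

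The separated gene nearest to Abi1 was Gm13410 (24178834 to 24180317), and it is a copy of Ddx6 of chromosome 9. It had 0.28, 0.23, 0.23 and 0.23 CPM in fl/fl tumors, against 1.23, 1.40, 1.56 and 1.35 CPM in fl/wt tumors (log2 fold change −2.50, standard error 0.19, adjusted p = 0.00495). Of the next 9 by distance, none passed the test in the fit over tumors and all had a gap under 1.1-fold. They were Rnf224, Tmem203 and Tmem141 with lower CPM in fl/fl tumors, and Camsap1, Tsc1, Ttf1, Lrrc8a, Gpr107 and Ciz1 with higher CPM. Tsc1, a tumor suppressor that restrains mTOR signaling, had 53.3, 47.9, 51.7 and 46.6 CPM in fl/fl tumors and 43.6, 39.9, 46.5 and 46.0 CPM in fl/wt tumors. Further out, Dhtkd1 (5896115 to 5942792), of mitochondrial lysine breakdown, had 12.6, 10.6, 11.2 and 10.1 CPM in fl/fl tumors and 6.44, 5.43, 8.50 and 6.80 CPM in fl/wt tumors (log2 fold change 0.72, adjusted p = 0.143).

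**Figure D3:**
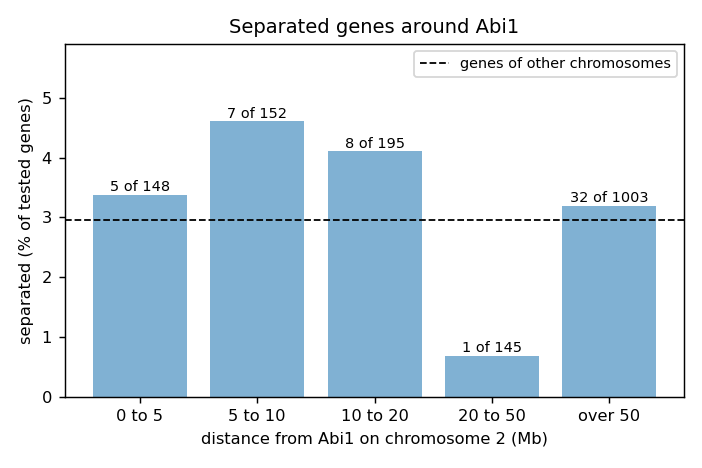
Percent of tested genes that were separated (y) by distance from Abi1 on chromosome 2 in Mb (x), with counts above the bars and a dashed line for genes of other chromosomes (2.95%). The 3 bins up to 20 Mb lie at 3.38%, 4.61% and 4.10%, and the bin of 20 to 50 Mb holds 1 separated gene of 145.

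The comparison was also tested, first with the mouse as replicate, 2 against 2. No gene of 23281 passed an adjusted p of 0.05 (0%) in the quasi-likelihood test of edgeR, and the lowest adjusted p was 0.0629, that of Acta1. With the mouse as replicate an unadjusted p under 0.05 was found for 354 genes, 89 higher and 265 lower in fl/fl mice. The Wald test of DESeq2 called 78 genes, of which 70 were lower in fl/fl mice, 32 were separated and 12 belonged to the 13 skeletal muscle genes.

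With tumors as replicates within a mouse, 58 of 22187 genes (0.261%) passed for the mean of the fl/fl mice against the mean of the fl/wt mice, 21 higher and 37 lower. Such p-values reflect how far tumors within 1 mouse differ and do not carry over to other mice. Leaving out G174 tumor 6 gave 68 calls, and leaving out any other tumor gave 18 (without G144 tumor 8) to 37 (without G164 tumor 3), and without both tumors with muscle genes 3 calls were left. Of the 58, 34 were separated and 24 were not, and in 16 of those 24 the mouse farthest from the others was G184. They included interferon-induced genes that were high in G184 alone, and Ifi44l, also interferon-induced, which was low in G184 alone. Ifi44l had 0.08 and 0.03 CPM in G184 and 10.1 and 6.79 CPM in G174. The fl/wt tumors had 4.89 and 6.33 CPM (G144) and 27.2 and 19.6 CPM (G164) of it. Gbp2, an interferon-induced GTPase, had 963 and 682 CPM in G184 and 58.5 and 60.1 CPM in G174 (fl/fl), against 44.7 and 53.8 CPM in G144 and 111 and 77.9 CPM in G164 (fl/wt).

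Of the 18 pseudogenes among the 58, the 5 that were not separated had 4 parents on chromosome 17 and 1 on chromosome 10. Those of chromosome 17 were copies of Mrps10, Atp6v0c, Wtap and Rnps1 and were low in G184 alone. Atp6v0c-ps2, a copy of a proton pump subunit gene, had 0.32 and 0.48 CPM in G184 and 12.2 and 15.5 CPM in G174, against 20.4 and 16.5 CPM in G144 and 13.7 and 14.8 CPM in G164. The copy of Tdg from chromosome 10, Gm9855, was high in G174 alone, at 5.39 and 5.87 CPM, with 0.13 and 0.11 CPM in G184 and 0.14, 0.16, 0.25 and 0.27 CPM in fl/wt tumors.

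The comparison was then made within the Cre- mice (G184 against G144) and within the Cre+ mice (G174 against G164), which share no tumor. The Cre- pair differed in 2787 genes (12.6%) and the Cre+ pair in 1576 (7.1%). In both pairs 782 genes passed, 32 in the same direction (0.144% of genes tested) and 750 in opposite directions (3.38%). The 32 were 1.15% of the calls of the Cre- pair and 2.03% of those of the Cre+ pair. Across all genes the log2 fold changes of the pairs had a Pearson correlation of −0.37 and a Spearman correlation of −0.54, over 22187 genes that are not independent of each other, and 28.8% of genes had the same sign.

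Of the 32 genes called in the same direction in both pairs, 29 were separated. Both rules use the same tumors and need the same direction in both pairs, so this overlap is largely built in. Of the 32, 11 were higher and 21 lower in fl/fl tumors, and 13 were pseudogenes (40.6%), against 38 of the 750 called in opposite directions (5.07%). Chromosome 9 held the parent of 9 of the 13 pseudogenes, all lower in fl/fl tumors, chromosome 12 that of 3, all higher, and chromosome 7 that of Gm1840, a copy of the glycolytic gene Gpi1 that was higher. Among all tested pseudogenes with a match, 98 of 1381 had a tested parent on chromosome 9 and 61 a tested parent on chromosome 12. By its own position, or for the 13 pseudogenes and Gm9008 by that of the parent, 18 of the 32 genes fell on chromosomes 9 and 12. By own position alone 2 of the 32 lay on chromosome 9 and 4 on chromosome 12, where 2081 of the 22187 tested genes lie, and the mixed rule was not applied to all genes. The count of 32 became 10 and 18 without G144 tumors 6 and 8, 15 and 14 without G164 tumors 3 and 6, 26 and 11 without G184 tumors 6 and 9, and 16 and 35 without G174 tumors 1 and 6, each left out alone. Without the tumors with muscle genes (chosen after seeing the data) it was 4, with 1 tumor left in each fl/wt mouse. Leaving out tumors cannot narrow a gap, apart from rescaling, so the 21 genes separated by at least 1.5-fold had to stay so. Without the tumors with muscle genes there were 32 such genes, and without any 1 tumor 23 to 35 (35 without G184 tumor 6).

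**Figure D4:**
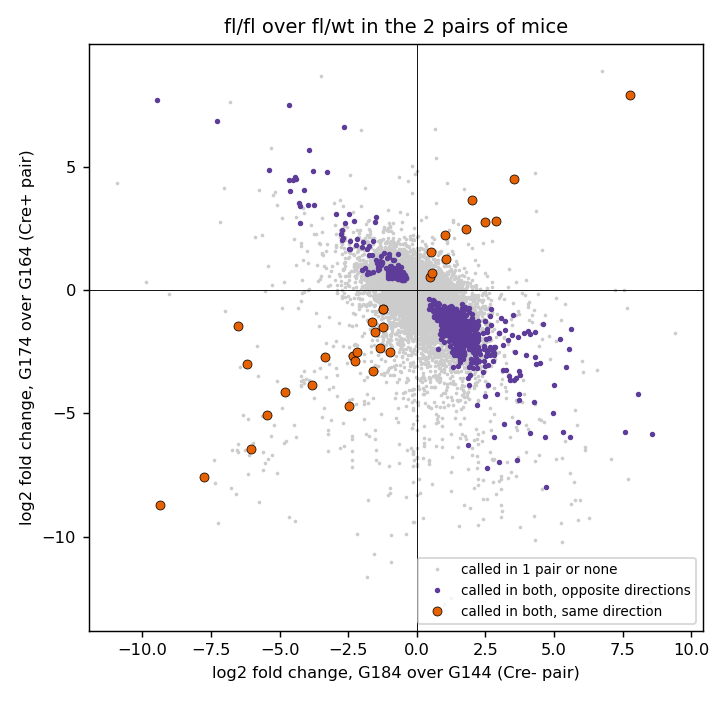
Log2 fold change of fl/fl over fl/wt for each tested gene in the Cre- pair (x, G184 over G144) and the Cre+ pair (y, G174 over G164), with genes called in both pairs in color. The 32 genes called in the same direction (orange) lie along the rising diagonal, and the 750 called in opposite directions (purple) lie in the other quadrants.

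Among protein-coding genes with a mean of at least 1 CPM the widest separations below the fl/wt tumors were those of Greb1 and Slc5a5. Greb1, an estrogen-induced gene on chromosome 12 (16670615 to 16800886), had 2.03, 2.46, 1.996 and 1.75 CPM in fl/fl tumors, against 6.31, 6.49, 6.97 and 5.08 CPM in fl/wt tumors. It fell in both pairs, by a log2 fold change of −1.51 (standard error 0.23, adjusted p = 0.0118) in the Cre- pair and −1.69 (0.23, adjusted p = 0.0139) in the Cre+ pair. Slc5a5, the sodium/iodide symporter that the lactating mammary gland uses, had 7.20, 6.28, 4.19 and 3.09 CPM in fl/fl tumors, against 13.5, 12.8, 22.4 and 18.7 CPM in fl/wt tumors. It fell more in the Cre+ pair (log2 fold change −2.50) than in the Cre- pair (−0.97), a difference of −1.53 (adjusted p = 0.0108).

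Rbm20, a splicing factor gene known from heart muscle, and Rec8, a meiotic cohesin gene, were also lower in both pairs. Rbm20 had 5.18, 3.08, 5.13 and 4.29 CPM in fl/fl tumors and 9.11, 10.1, 15.4 and 11.1 CPM in fl/wt tumors. It did not pass in the fit over tumors (log2 fold change −1.36, standard error 0.20, adjusted p = 0.0745). In each fl/wt mouse the tumor with muscle genes was the higher (10.1 CPM in G144 tumor 8, 15.4 CPM in G164 tumor 3). The other fl/wt tumors, at 9.11 and 11.1 CPM, also lay above all fl/fl tumors, and the part of muscle was not tested. Rec8 had 0.03, 0.02, 0.12 and 0.17 CPM in fl/fl tumors, against 0.96, 2.55, 1.52 and 0.80 CPM in fl/wt tumors (log2 fold change −4.59, standard error 0.49, adjusted p = 0.02). Rec8 lay at low levels throughout, and the sides did not overlap in either gene.

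Others lower in fl/fl tumors were Cyp3a57 of the cytochrome P450 family, Tmem158, 5430419D17Rik, Ptprn2 of secretory granules, the small GTPase gene Rasd1, the chemokine gene Cxcl15 and Proc, which encodes protein C. Of these 7, Cyp3a57, 5430419D17Rik and Ptprn2 passed the test over tumors. Ptprn2 had 0.18, 0.09, 0.58 and 0.83 CPM in fl/fl tumors, against 1.57, 1.31, 3.24 and 6.03 CPM in fl/wt tumors (log2 fold change −3.03, adjusted p = 0.0164). Cxcl15 varied most within a mouse, with 2.33, 0.31, 2.38 and 0.78 CPM in fl/fl tumors, against 3.92, 3.32, 7.51 and 5.55 CPM in fl/wt tumors (adjusted p = 0.348).

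Above the fl/wt tumors, the widest separations of protein-coding genes were smaller. Tnfrsf9, the costimulatory receptor 4-1BB of activated lymphocytes, had 2.05, 2.07, 2.59 and 2.69 CPM in fl/fl tumors, against 0.93, 1.04, 1.12 and 1.11 CPM in fl/wt tumors (log2 fold change 1.15, standard error 0.14, adjusted p = 0.0369). The 16 genes of the T cell list did not follow it: none was separated, and their sum was 42.8, 38.5, 10.6 and 12.5 CPM in fl/fl tumors and 17.2, 19.0, 40.5 and 50.9 CPM in fl/wt tumors. Cadm1, a cell adhesion gene on chromosome 9 (47530173 to 47857637), had 66.5, 81.4, 144.7 and 145.8 CPM in fl/fl tumors, against 54.4, 49.8, 50.4 and 49.2 CPM in fl/wt tumors. It rose in both pairs and more in the Cre+ pair (log2 fold change 1.54) than in the Cre- pair (0.50, adjusted p of the difference = 0.00717), and Gm47198, which lies in it on the same strand, was separated with it.

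Fcgbp, which encodes a mucin-like secreted protein and lies on chromosome 7 (28071236 to 28120862), was the most abundant of these. It had 476, 275, 261 and 199 CPM in fl/fl tumors, against 66.3, 141, 41.7 and 84.1 CPM in fl/wt tumors (log2 fold change 1.87, standard error 0.34, adjusted p = 0.134). The sides did not overlap, and the adjusted p was 0.0476 in the Cre- pair and 0.0625 in the Cre+ pair. The other 7 were Cfap70 and Catsper4 of cilia and sperm tails, Aste1, Dhtkd1, Unc13d of granule release, the zinc finger gene Zfp14 and 4833420G17Rik, with log2 fold changes of 0.38 to 0.79 and no call over tumors, although 4833420G17Rik was called in both pairs.

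**Figure D5:**
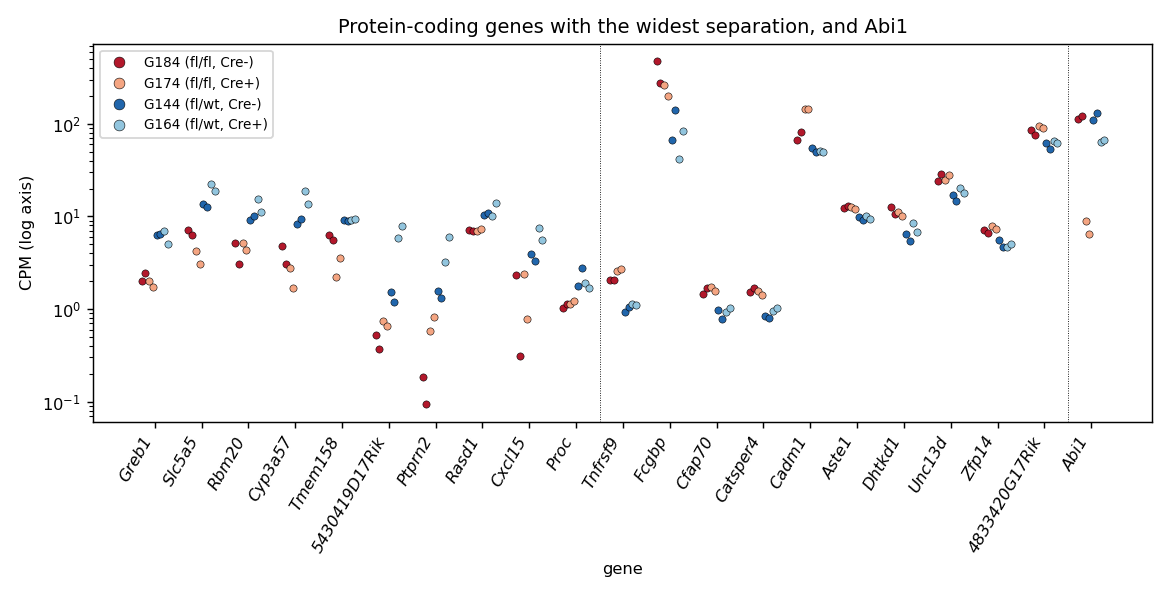
CPM on a log axis (y) of the 10 protein-coding genes with the widest separation in each direction and Abi1 (x), with a point for each tumor, fl/fl tumors left of fl/wt tumors. The first 10 genes are lower in all 4 fl/fl tumors (Greb1 at 1.75 to 2.46 CPM against 5.08 to 6.97 CPM), the next 10 are higher (Tnfrsf9 at 2.05 to 2.69 CPM against 0.93 to 1.12 CPM), and Abi1 is lowest in the G174 tumors, with the G164 tumors between these and the Cre- tumors.

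Gene lists for cell types and pathways were almost free of separation, with 4 of 287 measured members (1.39%) against 2.97% of all tested genes. The 4 were the pseudogene Zfp125 of the strain-variable list, Krt10 of keratinizing epithelium and the globin gene Hbb-bs, all lower in fl/fl tumors, and Sox10 of the Schwann cell lineage, which was higher. None passed the test over tumors. Krt10 had 1.89, 2.56, 2.16 and 2.53 CPM in fl/fl tumors and 2.67, 3.69, 66.6 and 17.5 CPM in fl/wt tumors, so its separation from G144 was slight.

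Many lists moved in opposite directions in the pairs, beside a median log2 fold change over all genes of 0.01 in each and calls for 12.6% of all tested genes in the Cre- pair and 7.1% in the Cre+ pair. The 17 interferon response genes had a median log2 fold change of 2.40 in the Cre- pair, where all 17 rose, and −0.72 in the Cre+ pair, where 4 fell. The 29 measured MHC genes had medians of 1.59, with 21 higher, and −0.96, with 15 lower. The T cell list had medians of 1.35 with 9 of 16 genes higher and −2.48 with 15 lower, and 14 of 17 mitosis genes fell in the Cre- pair (median −1.27), against none in the Cre+ pair (0.26). The part of age in these opposite moves was not tested: the older mouse was the fl/fl one in the Cre- pair and the fl/wt one in the Cre+ pair.

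The remaining lists had no separated member, and their most abundant genes overlapped between the sides. Nckap1, a subunit of the WAVE complex, had 278 to 324 CPM in fl/fl tumors and 292 to 308 CPM in fl/wt tumors. Of the 13 genes of the WAVE list, Abi1 alone passed the test over tumors, which 0.261% of all tested genes passed. Of the 10 genes of the ARP2/3 complex, which WAVE activates, none passed. Within pairs, 2 genes of the WAVE list were called higher in the Cre- pair and 3 lower in the Cre+ pair. No ARP2/3 gene was called in either pair, where 12.6% and 7.1% of all tested genes were.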

How the data were processed

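The deposited values are raw counts per gene from STAR on GRCm38/mm10, in 64 lane files with unstranded, forward and reverse columns. The STAR version and the annotation were not given in the sources used here. Reverse-strand counts were summed per tumor. A deposited table of counts per mouse was not used, and reads outside genes were left out of library sizes. Names, types and positions came from GENCODE M21, which lacked 241 of the 55385 identifiers. The members and gene lists were chosen with earlier results of these data known.

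Genes with low counts were removed with filterByExpr of edgeR 4.0.16 (R 4.3.3), leaving 22187 by tumor and 23281 by mouse, and scaled by TMM. Quasi-likelihood fits used 1 coefficient per mouse over 8 tumors, or genotype over 4 summed mice, with Benjamini-Hochberg adjustment and a threshold of 0.05. Steps were tested on simulated data. Counting intervals are exact (95%). Parents are the best megablast match (blastn 2.17.0, e-value 1e-20) of a pseudogene among protein-coding transcripts of named genes, leaving out genes with Gm numbers or clone names. Tumors of a mouse differed beyond counting error: the mean chi-square per gene between tumors of a mouse was 38.5 to 97.9 (median 2.74 to 6.09), where counting error alone gives about 1.

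Named genes are separated genes averaging 1 CPM or more with the widest gap (10 protein-coding and 5 others in each direction), the 10 separated genes of chromosome 2 nearest to Abi1, Abi1, the 10 genes with the lowest p by mouse or all past the threshold where fewer, and up to 3 separated members or else the most abundant member of each of 21 lists. Rec8, Gm9008, Gm9259, Gbp2, Acta1, the pseudogenes of chromosome 10 and 17 parents and the parent genes were chosen after their values were seen. Alternatives were DESeq2 size factors and Wald test (1.42.0), library-size scaling, no filter, unstranded counts, either run, a Cre covariate, a mean of at least 1 CPM, a gap of at least 1.5-fold, leaving out each tumor or mouse, and leaving out the tumors with muscle genes.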

Additional observations from a re-analysis of the deposited data

Results flagged for a closer look

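Among 62 named genes, 14 had a log2 fold change of fl/fl over fl/wt that differed between the Cre+ pair and the Cre- pair of mice in the interaction test of edgeR, at an adjusted p under 0.05. The value given is the Cre+ pair minus the Cre- pair. Of the separated genes, it was 1.04 for Cadm1 (1.54 in the Cre+ pair, 0.50 in the Cre- pair), 1.18 for Gm1840 (2.21 and 1.03) and 0.68 for Gm15459 (−4.14 and −4.82). It was −1.53 for Slc5a5, −1.70 for Cyp3a57 and −1.68 for 5430419D17Rik, which lay further below the fl/wt tumors in the Cre+ pair, and −3.65 for Krt10. These 7 are of 44 separated named genes. Over all tested genes 5579 of 22187 differed in this way, and of the 659 separated genes 24 did. Separation requires the same direction in both pairs, which selects against such a difference, so the lower share of separated genes is built in by the rule. The 14 of 62 named genes are no larger a share than that of all tested genes. Of genes that were not separated, the difference was −3.05 for Abi1, −4.00 for Cfd of adipocytes, −3.24 for Irf7 of the interferon response, −2.73 for Gzmb and −1.85 for Lck of lymphocytes, 0.84 for Epcam of epithelium and 0.53 for Actr2 of the ARP2/3 complex. Each pair is 2 mice of different age, so mouse, age and Cre cannot be told apart in these differences.

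In 4 of 124 groups of 4 tumors examined, 1 tumor lay far from the others. Chance flags about 1 in 20 groups where the values are independent and normally distributed. Tumors of the same mouse are not independent of each other, so that rate need not hold here. Gm13410 had 0.28 CPM in fl/fl tumor G184-6, against 0.23 in the other fl/fl tumors, and Tmem141 had 12.65 CPM in fl/fl tumor G174-6, against 10.97 to 11.16. Gm7993 had 0.16 CPM in fl/wt tumor G164-6, against 0.30 to 0.32 in the other fl/wt tumors, and Cfd had 82.9 CPM in fl/wt tumor G164-6, against 12.8 to 19.4.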

How the results depend on the processing

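Each side was 2 mice. The genes separated by at least 1.5-fold numbered 21, of the 659 separated. Without a filter on low counts the calls were 1 by mouse, 752 by tumor, 3597 in the Cre+ pair and 99 in the same direction in both pairs. With the Wald test of DESeq2 they were 78, 561 and 3130 for the first 3 of these and 4484 in the Cre- pair. Without the tumors with muscle genes (chosen after seeing the data), which leaves 1 tumor in each fl/wt mouse, they were 3 by tumor, 91 in the Cre- pair, 105 in the Cre+ pair and 4 in both, and 1789 genes were separated. The share separated within 20 Mb of Abi1 (4.04%) was 0.202% at 1.5-fold or more, 2.41% without a filter and 9.51% without the muscle tumors. Leaving out 1 tumor, where the lone tumor of a mouse is assumed to vary like the others, gave 0 calls by mouse, 18 to 68 by tumor, 205 to 3164 in the Cre- pair, 181 to 1321 in the Cre+ pair and 10 to 35 in both, with 953 to 1607 genes separated and 4.24% to 7.87% near Abi1. Fewer tumors make separation easier by construction, and the cause of the other shifts was not tested. Gm7049 reversed with unstranded counts (0.33). Of 17 named genes called by tumor, 14 lost the call in at least 1 alternative and 3 kept it, and no separated named gene changed sign otherwise. Other scalings, either run and a Cre covariate moved no count of calls and no count of separated genes by over 1.5 times, but the share within 5 Mb of Abi1 (3.38%) was 0.735% with run 1 alone. Tumors could not be paired between mice, because a tumor number names a tumor within its own mouse. The only number that fl/fl and fl/wt mice share is 6. Mice were matched by Cre in the Cre- and Cre+ pairs and in the fit with a Cre covariate.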
